A study of Mus musculus with 2 samples.

Results

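The nuclear lamina and envelope genes Lmna, Lmnb1, Lmnb2, Lbr, Tmpo, Sun1, Sun2, Syne1 and Syne2 were followed in nuclei of the adult and the aged mouse heart. They were chosen by name, and all 9 were listed in both libraries, among 24015 genes at 9 weeks and 22691 at 78 weeks. The adult group was 1 heart of a 9-week-old female and the aged group 1 heart of a 78-week-old female, both F1 hybrids of a C57BL/6J (BL6) mother and a CAST/EiJ (CAST) father, with no treatment named. For both hearts the strain field of the labels names the C57BL/6J∆Xist-/+ cross, whereas the genotype field reads C57BL/6JxCAST/EiJ and the title carries ++, which is the wild-type genotype that the methods of the study give. Nuclei were sorted by a DNA dye, sequenced from the 3′ end by droplet-based single-nucleus RNA-seq (snRNA-seq) and pooled over all cell types, and the values cover nuclei whose active X was of BL6 origin. Each value is a number of reads that cover a position at which BL6 and CAST differ (SNP-overlapping reads), so that each read belongs to 1 of the parental alleles. The adult library held 9747535 and the aged library 5805807 such reads. With 1 library per age, no test between the ages was possible, and all intervals are 95% intervals that cover counting error alone. How much 2 hearts of the same age differ was not measured.

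The nuclear lamina is a meshwork of intermediate filament proteins under the inner nuclear membrane. It is built from A-type lamins (A and C, spliced from Lmna) and B-type lamins (Lmnb1 and Lmnb2), and it holds silent chromatin at the nuclear edge with the help of membrane proteins such as the lamin B receptor (Lbr) and the LAP2 proteins (Tmpo). SUN proteins of the inner membrane bind nesprins (Syne1 and Syne2) of the outer membrane and so couple the lamina to the cytoskeleton. Mutations of LMNA cause dilated cardiomyopathy and premature ageing in humans, loss of lamin B1 is a known mark of senescent cells, and muscle cells depend on this coupling to position their nuclei. On GRCm38 the deposited loci of the lamins are chr3:88481148-88509932 (Lmna, minus strand), chr18:56707813-56753424 (Lmnb1, plus) and chr10:80901363-80918245 (Lmnb2, minus). Lbr lies at chr1:181815315-181842401 (minus) and Tmpo at chr10:91147571-91181716 (minus). The SUN genes are at chr5:139200556-139249839 (Sun1, plus) and chr15:79724068-79742536 (Sun2, minus), and the nesprin genes at chr10:5020192-5550692 (Syne1, minus) and chr12:75818318-76110928 (Syne2, plus). All are annotated as protein-coding, and the deposited coordinates span the whole gene, introns included.

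The clearest difference between the ages was in Lmna, the A-type lamin gene. Lmna had 531 reads at 9 weeks and 765 at 78 weeks, although the aged library was the shallower. Scaled to 1000000 reads over all genes (RPM), this was 54.5 RPM (Poisson interval 49.9 to 59.3) at 9 weeks and 132 RPM (123 to 141) at 78 weeks. The aged level was 2.42 times the adult level (exact interval 2.16 to 2.71), a log2 ratio of 1.27. This ratio ranked at percentile 94.3 of the 12736 genes that had at least 20 reads in both libraries. Lmna was thus above most genes, and the intervals of its levels did not overlap. In these pooled nuclei, fewer cells of a type and less RNA per cell cannot be told apart. Markers of smooth muscle, fibroblasts and endothelium also summed to more RPM at 78 weeks, with values given at the end, and their part in the result was not tested.

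The B-type lamins did not follow Lmna as a pair. Lmnb1 had 222 adult and 105 aged reads, or 22.8 RPM (19.9 to 26.0) and 18.1 RPM (14.8 to 21.9), with a ratio of 0.794 (0.623 to 1.01) whose interval just reached 1. Lmnb2 was the member with the fewest reads, 14 at 9 weeks and 43 at 78 weeks. Its level was 1.44 RPM (0.785 to 2.41) at 9 weeks and 7.41 RPM (5.36 to 9.98) at 78 weeks, a ratio of 5.16 with a wide interval of 2.77 to 10.2. Lmnb2 fell short of 20 reads in the adult library and was left out of the counts of members, except that of allelic ratios in the aged library.

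The genes of both chromatin-binding membrane proteins were higher in the aged library. Lbr, whose product also has sterol reductase activity, had 236 adult and 212 aged reads, or 24.2 RPM (21.2 to 27.5) and 36.5 RPM (31.8 to 41.8). Its ratio was 1.51, a log2 ratio of 0.59 (0.32 to 0.87). Tmpo had 716 and 687 reads, or 73.5 RPM (68.2 to 79.0) and 118 RPM (110 to 128), a ratio of 1.61 (1.45 to 1.79). In both genes the aged level lay above the adult interval.

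The SUN genes had like ratios and the nesprin genes did not. Sun1 had 500 adult and 391 aged reads, or 51.3 RPM and 67.3 RPM, with a ratio of 1.31 and a log2 ratio of 0.39 (0.20 to 0.59). Sun2 had 163 and 127 reads, or 16.7 RPM and 21.9 RPM, and its ratio was also 1.31 (1.03 to 1.66). Syne1, the gene of nesprin-1 and by far the member with the most reads, had 5609 reads and 575 RPM (560 to 591) at 9 weeks and 2283 reads and 393 RPM (377 to 410) at 78 weeks. The aged level of Syne1 was 0.683 times the adult level (0.651 to 0.718), so it was the lowest ratio among the members. Syne2, the gene of nesprin-2, had 840 and 480 reads, or 86.2 RPM and 82.7 RPM, and its ratio of 0.959 (0.856 to 1.07) could not be told from 1.

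**Figure D1:**
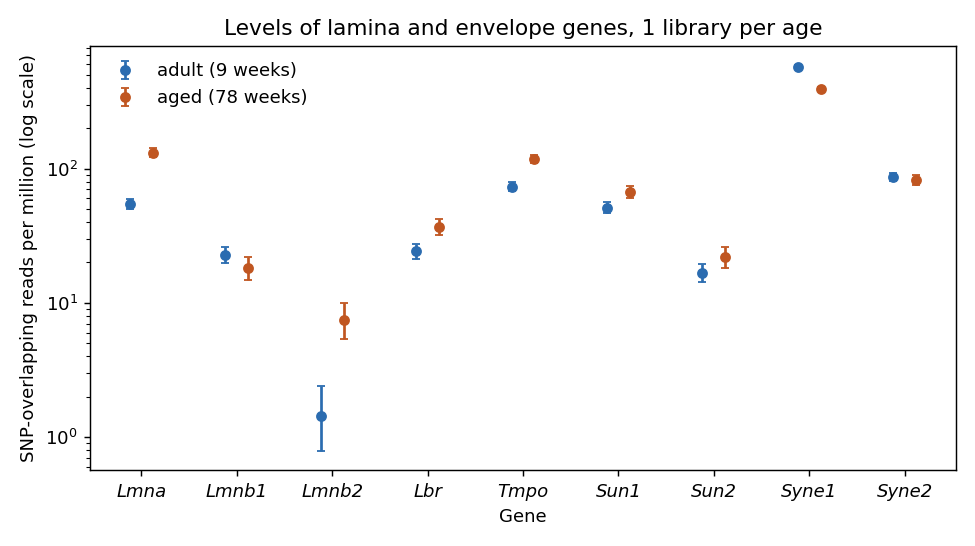
RPM (log scale) of the 9 genes in the adult and the aged library. Points are the level in 1 library and bars are exact 95% Poisson intervals, and the intervals of the ages are apart for Lmna (54.5 and 132 RPM), Lmnb2, Lbr, Tmpo, Sun1 and Syne1 (575 and 393 RPM).

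Past a fold of 1.5 on the RPM scale, 3 of the 8 members with enough reads were higher in the aged library (Lmna, Tmpo and Lbr), and 0 were lower. Over all 12736 genes, 28.0% were higher and 11.8% lower by the same fold, so the share of members is not far from what all genes showed. Without regard to the fold, 5 of the 8 members had a ratio above 1, where 64.2% of all genes did. The interval of the ratio lay wholly above 1 for Lmna, Lbr, Tmpo, Sun1 and Sun2 (42.3% of all genes) and wholly below 1 for Syne1 (20.7% of all genes). Lbr (1.51) lay just past the upper limit of 1.5-fold, and Syne1 (0.683) just short of the lower limit. The median ratio over all genes was 1.17 (log2 0.22). Relative to this median gene, Lmna was higher by 2.08 times (1.86 to 2.32) and Syne1 lower at 0.586 times (0.558 to 0.616), and of the 8 members these 2 were past 1.5-fold. On that scale 18.0% of all genes were higher and 18.4% lower. Tmpo (1.38) and Lbr (1.29) remained above the median gene, Sun1 (1.13) and Sun2 (1.12) were close to it with intervals that included it, and Lmnb1 (0.681) and Syne2 (0.823) were below it. The median log2 ratio of the 8 members was 0.39, against 0.22 for all genes.

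Ratios in these libraries went with the length of the locus. Genes under 20 kb had a median ratio of 1.31 (4831 genes), genes of 20 to 50 kb of 1.15, genes of 50 to 100 kb of 1.11, genes of 100 to 300 kb of 1.02 and genes over 300 kb of 0.925 (505 genes). The members differ widely in length, from 16.9 kb for Lmnb2 and 18.5 kb for Sun2 to 293 kb for Syne2 and 531 kb for Syne1. Against genes of its own length class, Lmna was still at 2.10 times the median and at percentile 95.4. Tmpo was at 1.40 and Lbr at 1.31 times the median of their class, whereas Sun2 was exactly at it. Syne1 was at 0.739 times the median of genes over 300 kb and at percentile 28.9 of them, so that its position among long genes was less extreme than its percentile of 12.6 among all genes. The part of locus length in these ratios was not tested.

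**Figure D2:**
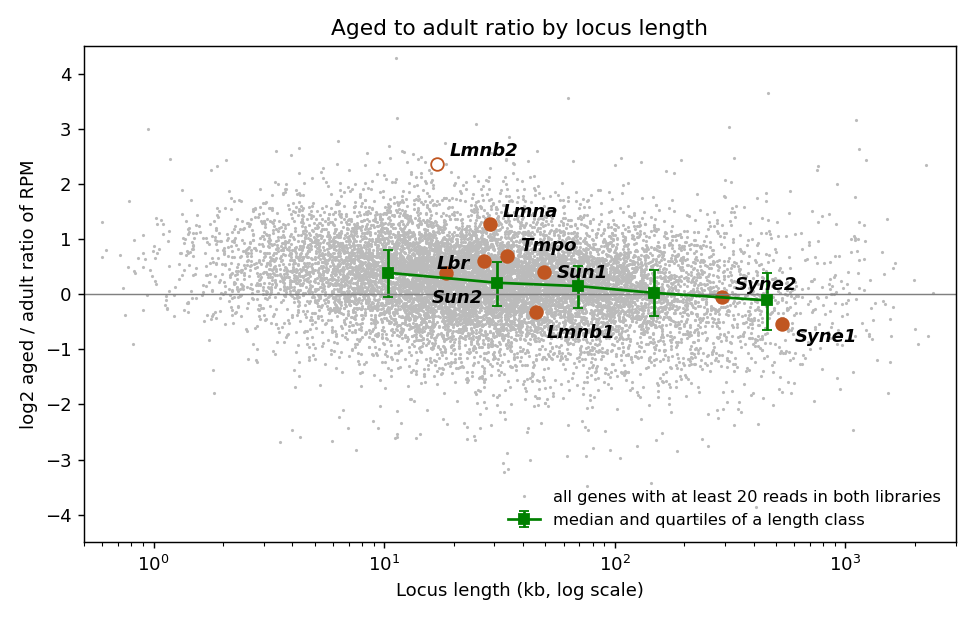
Log2 ratio of RPM (aged over adult) against locus length (kb, log scale). Grey points are 12736 genes, green squares with bars are the medians and quartiles of 5 length classes, and orange points are the members, with Lmnb2 drawn open because of its 14 adult reads. Lmna lies above its class and Syne1 at the long end below 0.

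The alleles were counted separately, so each difference can be read within both parental genomes of the same nuclei. For Lmna the BL6 reads went from 29.3 to 72.5 RPM and the CAST reads from 25.1 to 59.3 RPM. The aged to adult ratio was 2.47 (2.12 to 2.88) on BL6 and 2.36 on CAST, within the BL6 interval, so the higher level was present on both alleles to a like extent. Syne1 was lower on both alleles, with ratios of 0.728 (0.682 to 0.777) on BL6 and 0.631 (0.585 to 0.680) on CAST, and these intervals did not overlap. Tmpo was higher on both, with 1.45 on BL6 and 1.79 (1.54 to 2.09) on CAST.

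In Lmnb2, Lmnb1 and Sun2 the interval of the ratio lay apart from 1 on 1 allele alone. Lmnb2 had 9 BL6 reads at 9 weeks and 38 at 78 weeks, a ratio of 7.09 (3.37 to 16.7). The CAST reads were 5 in each library, a ratio of 1.68 (0.386 to 7.30), too few to tell whether CAST changed. For Lmnb1 the ratio was 0.989 (0.712 to 1.36) on BL6 and 0.613 (0.420 to 0.880) on CAST. For Sun2 it was 1.05 (0.722 to 1.53) on BL6 and 1.54 (1.12 to 2.12) on CAST. The intervals of the BL6 and CAST ratios overlapped for each of these 3 genes. Lbr had ratios of 1.41 on BL6 and 1.60 on CAST, Sun1 of 1.22 and 1.41, and Syne2 of 1.00 and 0.904.

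**Figure D3:**
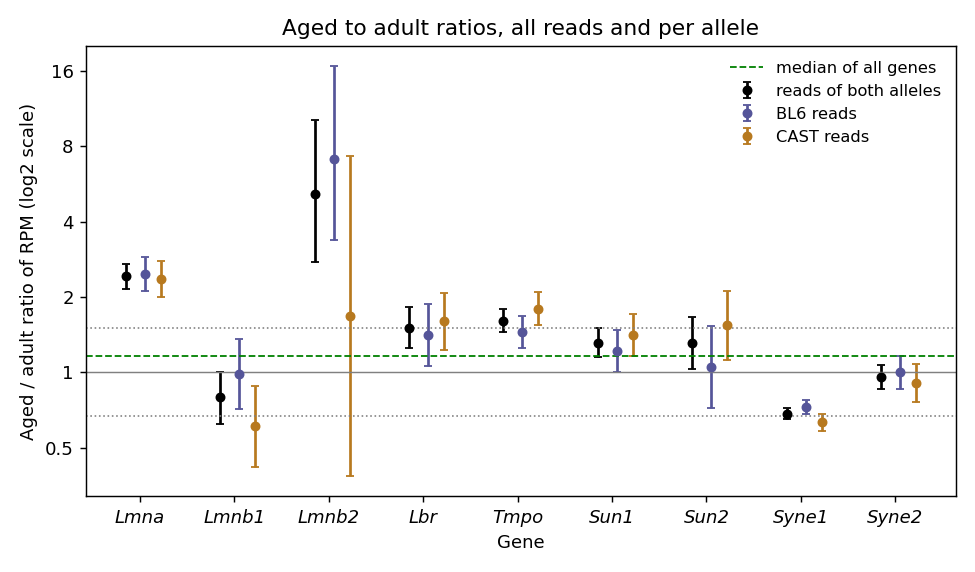
Aged to adult ratio of RPM (log2 scale) for the reads of both alleles, BL6 reads and CAST reads. Bars are exact 95% intervals, dotted lines mark 1.5-fold in either direction and the dashed line the median of all genes (1.17). The ratios of Lmna are alike on both alleles (2.47 and 2.36), whereas only the BL6 interval of Lmnb2 lies above 1.

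The allelic ratio, the BL6 share of the reads of a gene, places the same counts on a scale that does not depend on library size. Both libraries had a slight excess of BL6 reads, with a median allelic ratio of 0.536 over 14037 adult and 0.537 over 12770 aged autosomal genes with at least 20 reads. All members are autosomal. In the adult library none of the 8 members had an interval apart from the autosomal median, where 22.1% of autosomal genes lay above it and 21.6% below. Adult allelic ratios of these members ran from 0.470 (0.405 to 0.536) for Lbr to 0.554 (0.519 to 0.588) for Syne2. The upper limit of Lbr lay just at the median. Read against an equal share of 0.5, Syne1 and Syne2 were apart in the adult library, where 47.4% of autosomal genes were, and Lmna, Lmnb2, Sun2, Syne1 and Syne2 in the aged library, where 47.6% were, so which members stand apart depends on the point of balance.

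In the aged library 6 of 9 members were apart from the median, against backgrounds of 22.5% above and 22.7% below. Lmnb2 entered this count through its 43 aged reads, and it was not counted in the adult library with 14 reads. Without Lmnb2, 5 of the 8 members counted in the adult library were apart. Above it were Lmnb2, with an allelic ratio of 0.884 (0.749 to 0.961), and Syne1, with 0.577 (0.557 to 0.598). Below it were Sun2 with 0.386 (0.301 to 0.476), Lbr with 0.439 (0.371 to 0.508), Tmpo with 0.479 (0.441 to 0.517) and Sun1 with 0.481 (0.430 to 0.532). Lmna was balanced in both libraries, with 0.539 (0.495 to 0.582) and 0.550 (0.514 to 0.586). The allelic ratio of Lmnb2 in the aged library stood at percentile 98.2 of autosomal genes and that of Sun2 at percentile 10.7, and the other members lay between these.

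The change of allelic ratio from adult to aged excluded 0 for 3 of the 8 members, against 26.5% of 12390 autosomal genes. Lmnb1 went from 0.482 (107 BL6 and 115 CAST reads) to 0.600 (63 and 42 reads), a change of 0.118 (Newcombe interval 0.00212 to 0.228). Syne1 went from 0.542 to 0.577, a small change of 0.0351 (0.0110 to 0.0591) with a narrow interval, as it has the most reads. Tmpo went from 0.532 to 0.479, a change of -0.0532 (-0.105 to -0.000907). The intervals of Lmnb1 and Tmpo ended close to 0. The larger shift of Sun2, from 0.479 to 0.386, had an interval of -0.203 to 0.0222 and was not detectable at this depth. For Lmnb2 the change was 0.241 (0.00841 to 0.504), from an adult allelic ratio of 0.643 (0.351 to 0.872) on 14 reads.

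**Figure D4:**
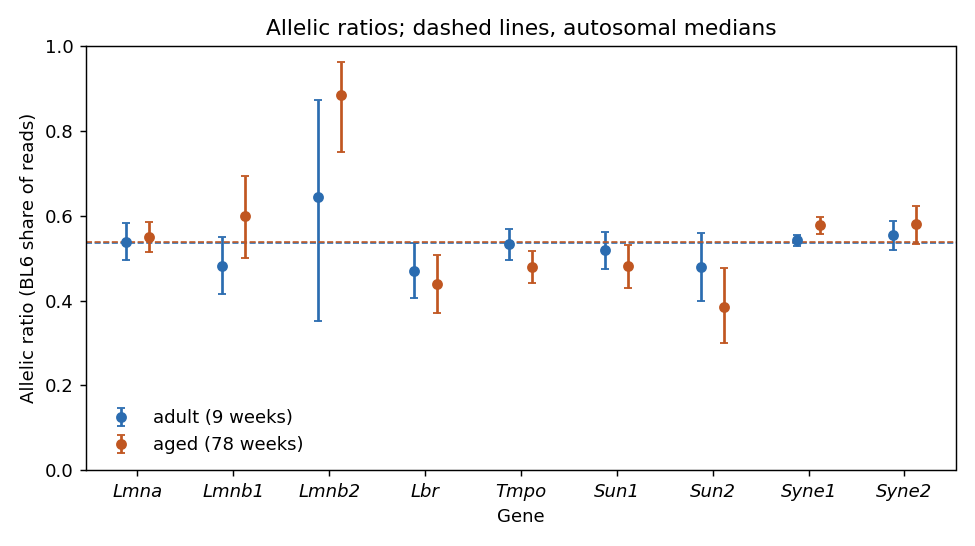
Allelic ratio (BL6 share of SNP-overlapping reads) of the 9 genes in the adult and the aged library. Bars are exact 95% Clopper-Pearson intervals and dashed lines the autosomal medians of 0.536 and 0.537. The intervals of Lmna include the median in both libraries, and Lmnb2 (0.884) and Sun2 (0.386) lie farthest from it in the aged library.

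Loci around the members give a local reference for the allelic ratio. Within 500 kb of Lmnb2, 39 adult and 36 aged genes had at least 20 reads, with a median allelic ratio of 0.548 and 0.554. Their range in the aged library was wide, 0.102 to 0.965, and holds the value of Lmnb2. Weighted by reads, the allelic ratio of these neighbours was 0.748 at 9 weeks and 0.809 at 78 weeks. The 25 aged neighbours of Sun2 had a median allelic ratio of 0.599 and ranged from 0.326 to 0.783, so Sun2 lay toward the low end of its surroundings. For Lmna the median over 25 neighbours was 0.531 at 9 weeks and 0.505 at 78 weeks. The 4 aged neighbours of Tmpo ranged from 0.506 to 0.648, all above the 0.479 of Tmpo itself. By position, Syne1 contains the deposited locus Gm40594 (1 adult and 13 aged reads) and Syne2 shares 1311 bp with Gm40447 (12 and 9 reads), both far below the reads of the members, and no other member overlapped a deposited locus. In GENCODE M21, genes on the opposite strand overlap Sun1 (4930520M14Rik), Sun2 (Gm16575), Tmpo (Gm26765, 1080 bp), Lbr (Dnah14, 460 bp) and Syne1 (Gm10097, 2784 bp, and Gm23573). The counting is not stated to use strand, so reads of such partners cannot be separated from those of the members.

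Shares within a family do not depend on the scale between the libraries. Lmna made up 531 of 767 lamin reads in the adult library, or 69.2% (65.8% to 72.5%), and 765 of 913 in the aged library, or 83.8% (81.2% to 86.1%). The share was 14.6 percentage points higher in the aged library (10.5 to 18.6). The ratio of Lmna to Lmnb1 reads, an A-type to B-type ratio that leaves out the sparse Lmnb2, was 2.39 at 9 weeks and 7.29 at 78 weeks. Among B-type lamin reads Lmnb1 held 94.1% (90.2% to 96.7%) at 9 weeks and 70.9% (62.9% to 78.1%) at 78 weeks. This share rests on 14 adult and 43 aged Lmnb2 reads. The difference was -29.9 points (-40.3 to -19.0) on BL6 reads and -6.47 points on CAST reads, with a CAST interval (-18.7 to 1.49) that included 0. Sun1 held 75.4% of the reads of the SUN pair at 9 weeks and 75.5% at 78 weeks, with a difference of 0.0678 points (-4.92 to 4.97). Syne1 held 87.0% of nesprin reads at 9 weeks and 82.6% at 78 weeks, 4.35 points less in the aged (difference of -4.35 points, -6.01 to -2.74). So the proportions of the lamins differed most, those of the nesprins slightly and those of the SUN pair not detectably. These shares also depend on how many SNPs each gene holds, which is the same for both ages.

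To compare levels between genes, RPM was divided by the length of the locus, since nuclear RNA includes introns. The number of SNPs per kb differs between genes and is not corrected. In the adult library Tmpo (2.15 RPM per kb) and Lmna (1.89) were highest, followed by Syne1 (1.08), Sun1 (1.04), Sun2 (0.905), Lbr (0.894), Lmnb1 (0.499), Syne2 (0.295) and Lmnb2 (0.0851). Intervals overlapped between Syne1 and Sun1, between Sun1 and Sun2 and between Sun2 and Lbr, so the order within that group is not settled. The intervals of Tmpo and Lmna overlapped as well. In the aged library Lmna came first with 4.58 RPM per kb (4.26 to 4.91), apart from Tmpo with 3.47 (3.21 to 3.73). Then came Sun1 (1.37), Lbr (1.35), Sun2 (1.18), Syne1 (0.741), Lmnb2 (0.439), Lmnb1 (0.397) and Syne2 (0.283). The median over all genes with at least 20 reads was 0.762 RPM per kb at 9 weeks and 0.981 at 78 weeks. Thus Lmna, Tmpo, Sun1, Lbr and Sun2 were above the typical gene in both libraries, while Lmnb1, Lmnb2 and Syne2 were below it in both. Syne1 was above it at 9 weeks and below it at 78 weeks.

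RefSeq promoter windows (GRCm38.p6, 250 bases before to 50 after a start site) were found for 8 of the 9 members. They are printed for the members past 1.5-fold on the RPM scale and for Syne1, to show how their promoters differ in sequence. Each is written on the minus strand, which is the strand of the genes. Capitals mark 3 short motifs and their reverse complements, searched on both strands. These are the GC box with the letters GGGCGG, the CCAAT box named by its own letters, and the box with the letters TATAAA that is known as the TATA box. None of these motifs contains another. The windows lie at chr3:88503303-88503602 for Lmna, chr1:181842352-181842651 for Lbr, chr10:91171570-91171869 for Tmpo and chr10:5550643-5550942 for Syne1. Those of Lbr and Syne1 sit at the 5′ end of the deposited locus, and that of Tmpo lies 10.1 kb inside it.
Lmna: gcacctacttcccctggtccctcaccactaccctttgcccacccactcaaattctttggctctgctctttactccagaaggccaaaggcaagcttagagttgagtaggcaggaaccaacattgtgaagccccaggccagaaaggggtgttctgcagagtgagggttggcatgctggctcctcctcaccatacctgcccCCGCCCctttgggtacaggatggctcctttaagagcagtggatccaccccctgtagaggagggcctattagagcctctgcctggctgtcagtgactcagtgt
Lbr: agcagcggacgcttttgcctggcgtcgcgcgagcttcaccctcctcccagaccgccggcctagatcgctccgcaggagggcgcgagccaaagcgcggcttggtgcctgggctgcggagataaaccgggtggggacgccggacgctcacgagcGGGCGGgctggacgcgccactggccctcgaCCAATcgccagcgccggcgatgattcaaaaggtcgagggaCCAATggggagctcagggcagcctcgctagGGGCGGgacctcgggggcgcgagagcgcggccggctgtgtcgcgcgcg
Tmpo: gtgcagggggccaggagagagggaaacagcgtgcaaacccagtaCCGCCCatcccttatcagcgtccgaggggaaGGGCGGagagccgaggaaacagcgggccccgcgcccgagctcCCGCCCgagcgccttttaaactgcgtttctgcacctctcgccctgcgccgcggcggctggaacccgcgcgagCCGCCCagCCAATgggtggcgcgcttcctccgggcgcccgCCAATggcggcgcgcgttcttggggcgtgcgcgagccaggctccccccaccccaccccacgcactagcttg
Syne1: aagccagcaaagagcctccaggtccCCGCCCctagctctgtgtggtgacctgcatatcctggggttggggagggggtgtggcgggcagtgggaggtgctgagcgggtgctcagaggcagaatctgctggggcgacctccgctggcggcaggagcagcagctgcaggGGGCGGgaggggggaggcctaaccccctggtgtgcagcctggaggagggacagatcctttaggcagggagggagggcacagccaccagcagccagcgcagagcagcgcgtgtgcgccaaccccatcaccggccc

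The printed windows of Lbr and Tmpo were alike in these counts. Lbr had 42 CG dinucleotides, 2 GC boxes and 2 CCAAT boxes, and Tmpo had 36, 4 and 2. Members not past 1.5-fold had like counts in their windows at or near the 5′ end of the locus. These were 36, 4 and 2 for Sun1, 39, 5 and 2 for Sun2 and 35, 3 and 0 for Syne2. The Lmna window had only 1 CG dinucleotide and 1 GC box, and that of Syne1 had 12 and 2. The median over 32851 windows was 7 CG dinucleotides, and 35.7% held a GC box, 37.4% a CCAAT box and 13.6% a TATA box. The start site of the Lmna window lies 6.58 kb inside the deposited locus, within 50 bases of the start of 3 of 7 GENCODE M21 transcripts. A second Tmpo window, 11.2 kb into the locus, had 17 CG dinucleotides and none of the 3 motifs, unlike the printed one. Lmna has a further window 16.6 kb into the locus, and Syne1 has 2 further windows, the last of them 48.9 kb from the 3′ end of the gene. The reads are given per whole locus and do not separate transcripts from different starts. A match of letters is a description and not a tested site.

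Other genes of the envelope were taken as lists. Of 13 LEM domain and inner membrane proteins, 10 had at least 20 reads in both libraries, 4 were higher in the aged library by 1.5-fold and 1 lower, beside 28.0% and 11.8% of all genes, with a median log2 ratio of 0.46 (all genes 0.22). Banf1, which bridges LEM domain proteins and DNA, was at 2.36 (1.41 to 4.02) times its adult level, from 27 and 38 reads. Emd, the X-linked gene of emerin, which overlaps the locus LOC108168464, was at 2.28 (1.48 to 3.54), Lemd2 at 1.74 and Lemd3 at 1.52. The lower one was Mlip, whose product binds lamin A in muscle, with 2883 RPM at 9 weeks and 1326 RPM at 78 weeks, a ratio of 0.460 (0.448 to 0.472). Tor1aip1, a torsin cofactor, was at 1.04 and Tor1aip2 at 1.16, of which Tor1aip2 was at the median gene and Tor1aip1 below it. Relative to the median gene, 2 of this list were higher (Banf1 and Emd) and 1 lower, beside 18.0% and 18.4% of all genes.

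Of 17 other SUN and KASH proteins and their cytoskeletal partners, 10 had enough reads, 6 were higher and 1 lower, beside 28.0% and 11.8% of all genes, and the median log2 ratio was 0.60. Higher were Plec, whose plectin connects nesprin-3 to intermediate filaments, at 2.18 (1.95 to 2.43), and Syne3, the gene of nesprin-3 itself, at 1.96 (1.66 to 2.32). The kinesin subunits Klc1 (1.58) and Kif5b (1.52), Tor1b (1.61) and Fhod1 (1.51) were also past the fold. Macf1 (1.49) was just short of it, and Dst was at 0.744 (0.719 to 0.768). Lower was Sun3, which overlaps Gm11992, with 501 adult and 32 aged reads and a ratio of 0.107 (0.0726 to 0.153). Relative to the median gene, 2 were higher (Plec and Syne3) and 2 lower (Sun3 and Dst), beside 18.0% and 18.4% of all genes. So Syne3 and Plec were higher in the same library in which Syne1 was lower.

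Prelamin A, the precursor made from Lmna, is farnesylated and then cut by Zmpste24. Of 5 genes of this processing 3 had enough reads. By 1.5-fold 0 were higher and 1 was lower, beside 28.0% and 11.8% of all genes, and the median log2 ratio was -0.48. Zmpste24 had 197 adult and 84 aged reads and a ratio of 0.716 (0.548 to 0.929). Of the farnesyltransferase subunits, Fnta was at 0.600 (0.482 to 0.743) and Fntb at 1.34 (1.15 to 1.55). Icmt had 19 reads in each library and Rce1 had 1 and 2, too few to be counted. Relative to the median gene, Zmpste24 and Fnta were both lower past the fold, where 18.4% of all genes were. Zmpste24 was thus lower in the library in which its substrate gene Lmna was higher, though short of 1.5-fold on the RPM scale.

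Of 31 nuclear pore genes, 25 had enough reads, 7 were higher and 1 lower, beside 28.0% and 11.8% of all genes, with a median log2 ratio of 0.44. The higher ones were Nup62 (2.41, 1.93 to 3.00), whose locus overlaps Atf5 and Gm21948, Rae1 (2.09), Nup50 (1.95), Ndc1 (1.85), Ahctf1 (1.82, 1.66 to 2.01), Nup43 (1.79) and Gle1 (1.71). Nup37 was lower, with 139 adult and 30 aged reads (0.362, 0.236 to 0.541). Nup210 had 121 adult and 15 aged reads (0.208, 0.113 to 0.357) and was not counted because its aged reads fell short of the minimum, so the count of lower genes depends on that filter. The abundant Nup98, Tpr and Ranbp2 were at 1.35, 1.03 and 1.38. Relative to the median gene 6 pore genes were higher and 2 lower, beside 18.0% and 18.4% of all genes. Of 10 heterochromatin factors 8 had enough reads, 3 were higher and 0 lower, beside 28.0% and 11.8% of all genes, with a median log2 ratio of 0.28. Cbx3 (1.87) and Cbx5 (1.70, 1.54 to 1.87), genes of heterochromatin protein 1, and the histone methyltransferase Ehmt2 (1.85) were higher, whereas Ehmt1 (1.18), Setdb1 (1.18) and Cbx1 (1.11) were near the median gene. Relative to the median gene 2 of this list were higher and 0 lower, beside 18.0% and 18.4% of all genes.

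Since lamin B1 is used as a mark of senescence, a senescence list was set beside it. Of 9 genes 6 had enough reads, 3 were higher and 0 lower, beside 28.0% and 11.8% of all genes. The median log2 ratio was 0.76. The chemokine gene Ccl2 had 46 adult and 137 aged reads (5.00, 3.56 to 7.14), the cell cycle inhibitor gene Cdkn1a 35 and 51 (2.45, 1.56 to 3.88) and Igfbp7 1748 and 2054 (1.97, 1.85 to 2.10). These 3 were higher relative to the median gene as well, where 18.0% of all genes were. Trp53, the gene of p53, was at 1.45, the inhibitor gene Cdkn1b at 1.06 and Igfbp3 at 0.930 (0.619 to 1.38). Of 10 proliferation genes only Cenpf had 20 reads in both libraries (1.09, 0.690 to 1.70), and the list summed to 18.2 RPM at 9 weeks and 19.5 RPM at 78 weeks.

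**Figure D5:**
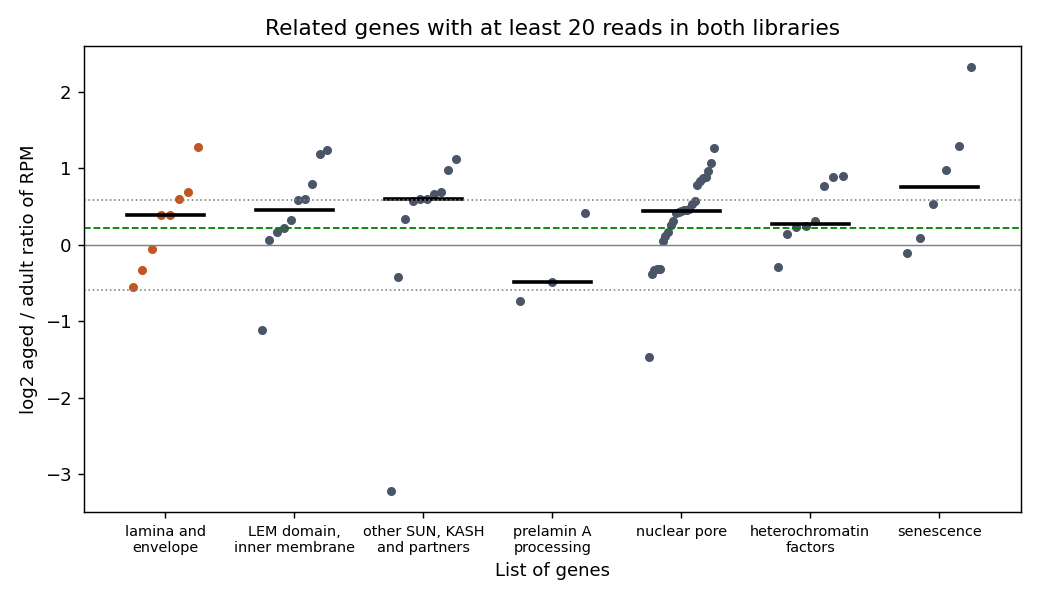
Log2 ratio of RPM (aged over adult) of the members (orange) and of 6 lists (grey) among genes with at least 20 reads in both libraries. Short bars are list medians, dotted lines mark 1.5-fold, the dashed line the median of all genes (0.22), and the proliferation list is not drawn because 1 of its genes had enough reads. The senescence list has the highest median (0.76) and prelamin A processing the lowest (-0.48).

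The pooled values do not separate cell types. The tissue label was checked with cardiomyocyte markers, and all 10 were present, with a sum of 31755 RPM at 9 weeks and 31862 RPM at 78 weeks. Their single ratios varied, from 0.580 for Ttn to 4.11 for Actc1. Markers of other cells summed to more RPM in the aged library, at 1458 and 1992 RPM for 10 fibroblast markers, 954 and 1442 RPM for 10 endothelial markers, 122 and 227 RPM for 6 pericyte markers (with Kcnj8 not listed), 119 and 349 RPM for 6 smooth muscle markers and 332 and 538 RPM for 8 macrophage markers. The 3 Schwann markers summed to 111 and 139 RPM. These lists moved in the direction of Lmna, Tmpo and Lbr. The 6 lymphocyte markers summed to 48.3 and 10.3 RPM, in the direction of Lmnb1, and most of this was Themis (27.9 and 2.76 RPM) and Skap1 (17.6 and 5.17 RPM). The T cell markers Cd3e and Cd3g had 9 and 5 adult reads and were at 0 in the aged library, whereas the B cell markers Cd79a (9 and 9 reads) and Ms4a1 (4 and 5 reads) did not share this direction. A set of 5 atrial genes, added after the values were seen, summed to 3443 and 613 RPM, almost all of it Kcnj3 (3247 and 451 RPM), in the direction of Syne1 and Mlip. Their part in the results for the members was not tested.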

How the data were processed

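The authors aligned snRNA-seq reads of 1 adult and 1 aged heart with Cell Ranger 7.1.0 to GRCm38/mm10, which the submitters' processing notes also name, divided the alignments by nucleus and active X chromosome, pooled the nuclei with an active BL6 X and counted SNP-overlapping reads per RefSeq gene and allele with Allelome.PRO2. The deposited counts are not normalized, and genes with 1 read are included. The deposited allelic ratio is a fraction from 0 to 1 rounded to 2 decimals by the authors, and here it was computed again from the counts. The deposited allelic score was not used. Allelic counts came from the Cell Ranger alignments, whereas CellBender correction of free RNA and removal of doublets by DoubletFinder applied to the expression matrices. Whether doublets were left out of the pooled nuclei and whether reads of 1 molecule were merged are not given in the sources used here. Ages were taken from the labels, because 1 file name gives another age.

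From the counts, RPM, aged to adult ratios with exact conditional binomial intervals, exact Poisson and Clopper-Pearson intervals and Newcombe intervals were computed with Python 3.11.15, scipy 1.17.1 and pandas 2.3.3, at a confidence of 95%. Counts of members and backgrounds used at least 20 reads per library, and 1.5-fold as the limit. The functions were tested on simulated data. Scaling factors came from edgeR 4.0.16 (TMM) and DESeq2 1.42.0 in R 4.3.3, without any count test. Locus lengths and starts are those of the deposited coordinates, counted from 1. Exons, transcripts and overlapping genes came from GENCODE M21, and promoters from RefSeq, GRCm38.p6.

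Of the lists, 1 gene and 1 marker are not reported here. The members and lists were chosen with earlier results of these data known. Genes named from a list were its 4 genes with the most reads and those past 1.5-fold with an interval apart from 1. Icmt, Rce1, Nup210, Igfbp3, Kcnj8, Themis, Cd3e, Cd3g, Cd79a and Ms4a1 fall outside this rule and were named after their values were seen. Nrm, Nemp1, Irag2, Kash5, Nup58, Nup160, Nup214, Prr14 and Kcnj8 were not found under these symbols. Length classes and the atrial genes were added after the data were seen. Alternatives were other scales, folds, read minimums, points of balance, intervals, single alleles and exon length.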

Additional observations from a re-analysis of the deposited data

How the results depend on the processing

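For the members, no alternative turned a call of higher when aged into one of lower, or the reverse. Of the members, 3 were higher past 1.5-fold on RPM, and 1 (Lmna) with TMM factors, with DESeq2 size factors, against the median of the length class (added after seeing the data) and at 2-fold, 2 (Lmna and Tmpo) without the 20 genes with the most reads, while 5 were higher at the smaller fold tried. Lower were 0 on RPM, 1 (Syne1) with TMM and with DESeq2 factors and 2 (Syne1 and Lmnb1) at the smaller fold. The members apart from balance in the adult library numbered 0, but 2 (Syne1 and Syne2) against 0.5 and 1 (Lbr) with Wilson intervals. The aged share of Lmna in lamin reads (83.8%) was 80.7% on BL6 and 88.0% on CAST reads and 87.9% without Lmnb2, which was chosen after seeing the data. The aged share of Lmnb1 in B-type reads (70.9%) was 62.4% on BL6 and 89.4% on CAST reads, and that of Sun1 in the SUN pair (75.5%) was 79.3% on BL6 reads. Over all lists, 23 genes were higher and 4 lower on RPM, where 28.0% and 11.8% of all genes were. With DESeq2 factors 16 were higher and 7 lower, and in the SUN and KASH list the higher genes went from 6 to 2. At a minimum of 100 reads, where fewer genes are tested, 16 were higher and 2 lower. The shares of all genes under these other settings are not given here, and the genes with enough reads are given above for each list. Exon length of GENCODE M21, also added after seeing the data, widened the adult span from highest to lowest member from 25.3 to 42.4 times, with Syne1 in place of Tmpo at the top. It also changed the order of other members. Adult Lmnb1 moved from rank 7 to rank 3 (7.69 RPM per kb of exon), above Sun1 (6.75), Tmpo (6.68) and Lbr (5.09). The other causes were not tested. RefSeq exon lengths were not used here, since the table gives locus spans. No paired analysis was possible because there is 1 library per age, and for the same reason no library could be left out. Depth limits Lmnb2 most, with 14 adult reads.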

Other observations

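The allelic ratios of some related genes were not given above. Emd lies on the X chromosome, so in nuclei with an active BL6 X its CAST allele is that of the inactive X, and nuclei were assigned by the authors from their own X-linked reads. It had 38 BL6 and 1 CAST reads at 9 weeks and 46 BL6 and 7 CAST reads at 78 weeks, an allelic ratio of 0.974 (0.865 to 0.999) and 0.868 (0.747 to 0.945). The change of -0.106 had an interval of -0.225 to 0.0189, and Emd overlaps the locus LOC108168464. Nup62 went from 0.378 (0.298 to 0.462) to 0.132 (0.0886 to 0.186), a change of -0.246 (-0.337 to -0.154), and overlaps Atf5 and Gm21948. Sun3 came mostly from CAST in both libraries, with an allelic ratio of 0.146 at 9 weeks and 0.156 at 78 weeks. Ndc1, which overlaps no deposited locus, went from 0.477 to 0.302, a change of -0.175 (-0.277 to -0.0688), whereas Ehmt2 went from 0.661 to 0.787, a change of 0.126 (0.0450 to 0.206).

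By reads alone, Syne1 made up 63.5% of the reads of the 9 members at 9 weeks and 44.8% at 78 weeks. The members together had 906 RPM at 9 weeks and 877 RPM at 78 weeks. Without Syne1 they had 331 and 484 RPM.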
